A study of Mus musculus with 2 samples.

Results

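The genes described here are 10 genes of iron handling: the hepcidins Hamp and Hamp2, the sensors Hfe and Tfr2, the plasma proteins Trf and Cp, the transporters Slc40a1 and Slc39a14, and the ferritin chains Ftl1 and Fth1. They were taken by symbol from the 32285 genes counted in single-cell RNA-Seq of mouse liver, and all 10 were present. A WT library and a miR-33 HKO library were made, each from 3 pooled livers of male littermates that had eaten a choline-deficient, high-fat diet for 6 months from 8 weeks of age. The HKO mice carried loxP sites around miR-33 and a Cre driven by the albumin promoter, so the deletion was directed to hepatocytes. Whether the WT mice carried loxP sites is not given in the sources used here. Hepatocytes and sorted live nonparenchymal cells were mixed at equal numbers. With 1 library per genotype no difference between WT and HKO could be tested: levels are unique molecular identifiers (UMIs) per 1000000 UMIs of the class (CPM), and every interval is an exact 95% interval that covers counting error only.

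Hepatocytes govern body iron by secreting hepcidin, a peptide that binds the exporter ferroportin and causes its degradation on macrophages and enterocytes. HFE and transferrin receptor 2 sense transferrin-bound iron at the hepatocyte surface, and bone morphogenetic proteins from liver endothelial cells drive Hamp transcription through SMAD proteins. Ferritin stores iron inside cells, and its translation is held back by iron regulatory proteins when iron is scarce.

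The iron responsive elements are shown first because they are the sites through which iron regulatory proteins act on transcripts, and only some members hold a match. The search was for a C, 5 bases, the letters CAGTG, a base other than G, and 5 bases able to pair with the first 5, on the transcript strand of the GENCODE M21 annotation of GRCm38. Of 20582 genes with a 5′ UTR of sufficient length, 0.112% held such a match, and Ftl1, Fth1 and Slc40a1 were the 3 members that did. Capitals mark the 6-base loop, and each window of 30 bases lies in exon 1.
Ftl1, chr7:45459778-45459807, minus strand: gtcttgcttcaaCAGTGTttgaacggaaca
Fth1, chr19:9982732-9982761, plus strand: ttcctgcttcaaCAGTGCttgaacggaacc
Slc40a1, chr1:45925464-45925493, minus strand: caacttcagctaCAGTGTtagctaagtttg
In 3′ UTRs, where 0.477% of 20962 genes held a match, no member did, and Tfrc, the transferrin receptor of the wider iron list, held 4. These matches are descriptions of the sequence and not measurements of binding.

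Hamp and Hamp2 are near copies. Hamp lies at chr7:30942368-30944032 and Hamp2 at chr7:30922372-30924681, both on the minus strand of GRCm38, and their annotated transcripts were identical at 94.6% of aligned positions. Since reads are assigned at the 3′ end, where the last 200 bases of both transcripts were identical at 90% of aligned positions, the division of UMIs between Hamp and Hamp2 is uncertain.

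The deleted microRNA is shown with its match among the members. Capitals mark the seed, bases 2 to 8, of the mature RefSeq sequence, whose genomic position is chr15:82198127-82198147 on the plus strand.
mmu-miR-33-5p: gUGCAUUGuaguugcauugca
The reverse complement of the seed, CAATGCA, was sought in the longest annotated 3′ UTR of each gene. It was present in 7.12% of 20998 genes and in 1 of the 10 members, Cp, whose site is shown with the match in capitals.
Cp, chr3:20006879-20006908, plus strand: agagtctggtgCAATGCAccccaaaggacc
No counted feature was named for miR-33, so the deletion itself could not be read from these libraries.

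The WT library held 30078 barcodes and 130451427 UMIs, and the HKO library 20000 barcodes and 52563185 UMIs. Free RNA from hepatocytes was present in every cell class: Alb, the albumin gene, reached 34733 CPM in WT barcodes of free RNA depth and 36309 in WT hepatocyte-like barcodes. Hepatocyte-like barcodes were therefore taken by depth, as barcodes without markers of another class and with at least 2 times the commonest depth, and hepatocyte markers alone did not separate them from free RNA. They numbered 1925 in WT and 3570 in HKO, with median depths of 20246 and 4452 UMIs. Macrophage-like barcodes, with 21 in WT and 96 in HKO, and endothelial-like barcodes, with 62 and 130, were few. Hbb-bs, a hemoglobin gene that marks red cell RNA, was at 367 CPM in WT and 1272 in HKO hepatocyte-like barcodes, a ratio of 3.46. In barcodes of free RNA depth it was at 283 and 1222. Only 17.7% of WT and 8.88% of HKO hepatocyte-like barcodes held a Hbb-bs UMI, so the ratio does not describe a typical barcode. The part of Hbb-bs in the values below was not tested.

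The members divided by cell class. Slc40a1, which encodes ferroportin, was the member most concentrated outside hepatocytes. It stood at 1629 CPM in WT macrophage-like barcodes (617 UMIs) and at 1880 in HKO (1894 UMIs), against 108 and 148 in hepatocyte-like barcodes. Free RNA, scaled by Alb, would have given 8.58 UMIs there in WT and 10.5 in HKO. Macrophages export the iron of digested red cells through this protein.

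Slc40a1 was also present in stellate-like barcodes, at 580 CPM in WT and 709 in HKO, which was 6.41 times the free RNA level in WT (interval 5.42 to 7.54) and 9.48 times in HKO (8.26 to 10.8). In endothelial-like barcodes it was at 261 and 278, or 6.13 and 9.50 times free RNA. In T and NK barcodes it lay at 1.06 times the free RNA level in WT (0.834 to 1.33) and 1.12 times in HKO (0.88 to 1.40), so no Slc40a1 above free RNA was detectable there. By CPM the order was the same in both libraries, from macrophage-like through stellate-like and endothelial-like to hepatocyte-like barcodes. Free RNA was unequal between these classes. Alb was at 26604 CPM in stellate-like and 6657 in macrophage-like barcodes of WT, and at 16566 and 2319 in HKO. The order without free RNA was not tested.

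Hfe, the sensor mutated in hereditary hemochromatosis, was higher in several other classes than in hepatocytes, though not in lymphocytes: T and NK barcodes gave 13.3 and 5.89 CPM. It reached 106 CPM in WT macrophage-like barcodes (interval 75.4 to 144) and 123 in HKO (102 to 147), against 22.5 and 19.8 in hepatocyte-like barcodes. Barcodes of monocytes and dendritic cells gave 80.9 in WT and 64.6 in HKO, and endothelial-like barcodes 45.2 and 40.9. The intervals of the monocyte and macrophage classes overlapped in WT, and those of the endothelial and monocyte classes in both libraries. Tfr2, its partner in hepatocyte iron sensing, was at 177 and 172 in hepatocyte-like barcodes, while in endothelial-like barcodes its 61.7 and 33.1 were within counting error of free RNA. Slc39a14, the ZIP14 carrier of iron that is not bound to transferrin, was at 169 and 159 in hepatocyte-like barcodes, and in endothelial-like barcodes lay at 0.854 times free RNA in WT and 1.43 in HKO, with both intervals holding 1. In macrophage-like barcodes it stood at 0.848 times free RNA (0.341 to 1.75) on 7 UMIs in WT and at 2.53 times (1.65 to 3.70) on 26 UMIs in HKO.

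By summed UMIs, the ferritin chains were higher in macrophage-like than in hepatocyte-like barcodes. Ftl1 was at 5334 CPM in WT and 4350 in HKO macrophage-like barcodes, and at 2605 and 3413 in hepatocyte-like barcodes. Fth1, which carries the ferroxidase site of ferritin, was at 7995 and 5195 in macrophage-like and at 3431 and 4458 in hepatocyte-like barcodes. The median macrophage-like barcode held only 3284 and 3615. These medians are another measure than summed UMIs and are not set against the hepatocyte levels. Both also exceeded free RNA in barcodes of monocytes and dendritic cells, by 2.67 and 3.09 times in WT and by 3.60 and 4.43 times in HKO for Ftl1 and Fth1 respectively. A processed copy of Ftl1, Ftl1-ps1, drew 39 CPM in WT and 12 in HKO hepatocyte-like barcodes, and reads that match both are uncertain.

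Cp, the copper-dependent ferroxidase ceruloplasmin, was highest in cholangiocyte-like barcodes. It was at 6690 CPM in the 7 such barcodes of WT and at 5647 in the 24 of HKO, which was 21.6 and 22.7 times free RNA, against 1801 and 1250 in hepatocyte-like barcodes. Hamp and Trf, the carrier of iron in plasma, were in contrast highest in hepatocyte-like barcodes, as was Hamp2 apart from WT neutrophil barcodes (323 CPM on 5 UMIs in 3 barcodes). In WT macrophage-like barcodes Hamp was at 0.866 times the free RNA level, and in HKO at 0.825 times.

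Counted against a 2-fold margin over free RNA with at least 10 UMIs, 4 of the 8 members with enough UMIs stood above it in WT macrophage-like barcodes and 5 of 9 in HKO. Over all genes the share was 90.1% in WT and 95.5% in HKO, above the members' share. In endothelial-like barcodes 2 of 10 members did in WT and 3 of 10 in HKO, against 78.9% and 89.9% of all genes. In cholangiocyte-like barcodes the counts were 4 of 7 and 3 of 7, against 89.8% and 92.4%, and in stellate-like barcodes 1 of 9 and 2 of 10, against 39.9% and 66.8%. In T and NK barcodes 0 of 10 members did in either library, against 64.8% and 82.6% of all genes. The shares over all genes count only genes with at least 10 UMIs in the class, and the members include abundant hepatocyte transcripts for which free RNA is plentiful.

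**Figure D1:**
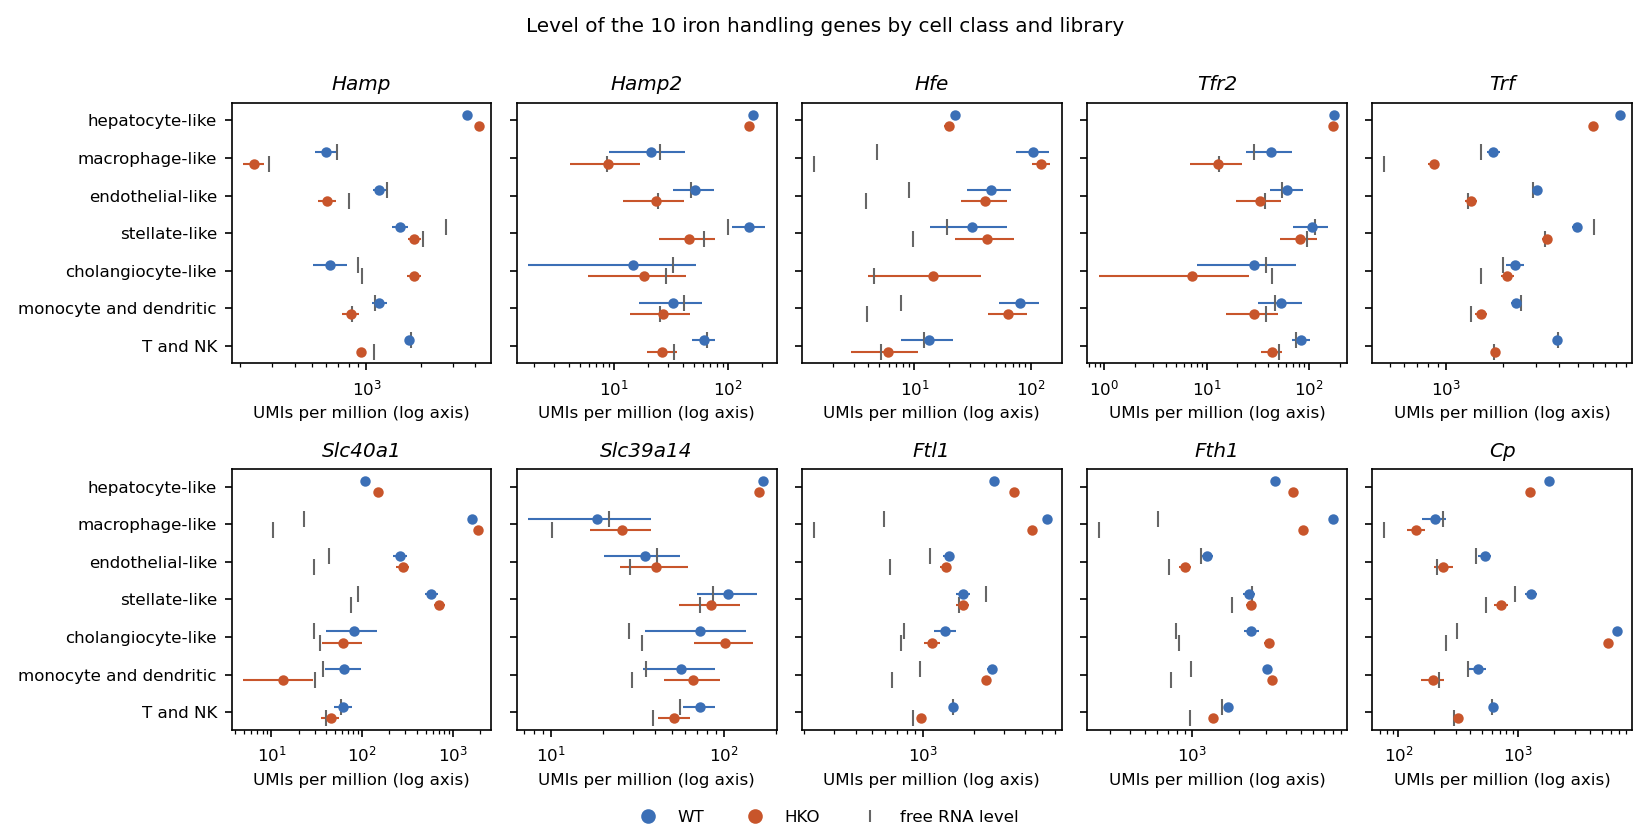
CPM (log axis) of each member in 7 cell classes, with WT in blue and HKO in orange; bars are exact 95% Poisson intervals, grey ticks mark the level that free RNA would give in that class, and a class with 0 UMIs has no point. Slc40a1 lies far above its free RNA ticks in macrophage-like barcodes (1629 and 1880), Cp in cholangiocyte-like barcodes (6690 and 5647), and Hamp stays at or below them in macrophage-like barcodes.

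In hepatocyte-like barcodes, none of the 10 members reached a ratio of 1.5 between HKO and WT in either direction, while 6.69% of the 7082 genes with a mean of at least 10 CPM did, 2.41% higher and 4.28% lower in HKO. All 10 members passed that filter. With barcodes weighted equally 2 members passed, Ftl1 at 1.60 and Cp at 0.594, beside 10.3% of all genes. The median log2 ratio of the members was -0.07, beside -0.02 over all genes tested, with 4 members higher and 6 lower in HKO.

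The plasma proteins were lower in the HKO library. Trf was at 8385 CPM in WT (412241 UMIs) against 6066 in HKO (158263 UMIs), giving a ratio of 0.723 (interval 0.719 to 0.728). Cp was at 1801 and 1250, a ratio of 0.694 (0.685 to 0.703). Alb, another secreted protein of hepatocytes, gave a ratio of 0.756 in the same barcodes and Apoa1 one of 0.847, and their part in the values of Trf and Cp was not tested.

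Ferroportin and the ferritin chains lay on the other side. Slc40a1 was at 108 in WT against 148 in HKO, giving a ratio of 1.37 (1.31 to 1.43). Ftl1 gave a ratio of 1.31 (1.30 to 1.32) and Fth1 of 1.30 (1.29 to 1.31), and the ratio of Fth1 to Ftl1 UMIs was 1.32 in WT and 1.31 in HKO. Over all genes tested, 3275 of 7082 were higher in HKO. Ribosomal protein genes took 3.69% of the UMIs of these barcodes in WT and 4.86% in HKO, and their part in the ferritin ratios was not tested. In barcodes of free RNA depth, Ftl1 gave 0.959 (0.947 to 0.970), Fth1 1.03 (1.02 to 1.05) and Slc40a1 1.15 (1.08 to 1.22). Trf and Cp gave 0.757 and 0.793 there.

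The hepcidins lay on opposite sides of 1. Hamp was at 3618 CPM in WT against 4207 in HKO, giving a ratio of 1.16 (1.15 to 1.17), and Hamp2 at 166 and 153, a ratio of 0.926 (0.891 to 0.962). Hamp thus exceeded Hamp2 by 21.8 times in WT and 27.4 times in HKO.

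Among the sensors, Tfr2 was at 177 and 172, a ratio of 0.970 whose interval (0.936 to 1.01) held 1. Hfe gave 0.882 (0.793 to 0.981) on 1104 and 517 UMIs. For the importer Slc39a14 the ratio was 0.941 (0.906 to 0.977), and it became 1.08 with no depth minimum.

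Hepatocyte-like barcodes were not uniform in RNA make-up, and the member ratios depended on it to different degrees. Of the Leiden clusters, built without the members, 6 held at least 50 hepatocyte-like barcodes in each library. In cluster 12 the nuclear transcript Malat1 reached 36457 CPM in WT and 47756 in HKO, and in cluster 5 mitochondrial genes took 28.4% and 33.1% of UMIs. In cluster 3 mitochondrial genes took 1.12% and 2.26%, and cluster 4 was the largest, with 675 and 1302 barcodes. Cluster 3 supplied 24.4% of hepatocyte-like UMIs in WT and 14.7% in HKO, cluster 4 42.5% and 58.8%, and cluster 5 22.1% and 14.9%.

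The ferritin chains differed between these clusters. In WT, Fth1 was at 4748 CPM in cluster 4, 4445 in cluster 3, 1288 in cluster 7, 894 in cluster 5 and 654 in cluster 12, where cluster 7 had 36.5% of UMIs from mitochondrial genes. Slc39a14 in WT was at 485 in cluster 12, 250 in cluster 5, 108 in cluster 3 and 87.2 in cluster 7. The clusters richest in Malat1 or mitochondrial RNA thus held the lowest ferritin levels, and the part of this in the difference between the libraries was not tested.

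Within clusters, Trf and Cp were lower in HKO in 6 of 6, with ratios of 0.405 to 0.807 for Trf and 0.359 to 0.763 for Cp, and every interval lay below 1. Alb was lower in 6 of 6 as well, with ratios of 0.442 in cluster 3 to 0.884 in cluster 6. Slc40a1 was higher in HKO in 6 of 6, with ratios of 1.17 to 1.52, and the interval lay above 1 in 4 of them. Hamp2 was lower in 6 of 6 (0.518 to 0.971), with the interval below 1 in 4.

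The other members changed side between clusters. Ftl1 ranged from 0.836 to 1.88 and Fth1 from 0.793 to 1.95, each above 1 in 4 clusters and below 1 in 2, with no interval holding 1. In cluster 3 the ratios of Ftl1 and Fth1 were 1.88 and 1.95, and in cluster 4, the largest, 1.12 and 1.02. Hamp ranged from 0.639 in cluster 12 to 1.46 in cluster 6 and was 1.34 in cluster 4. Tfr2 was at 0.368 in cluster 3 and 1.27 in cluster 4.

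**Figure D2:**
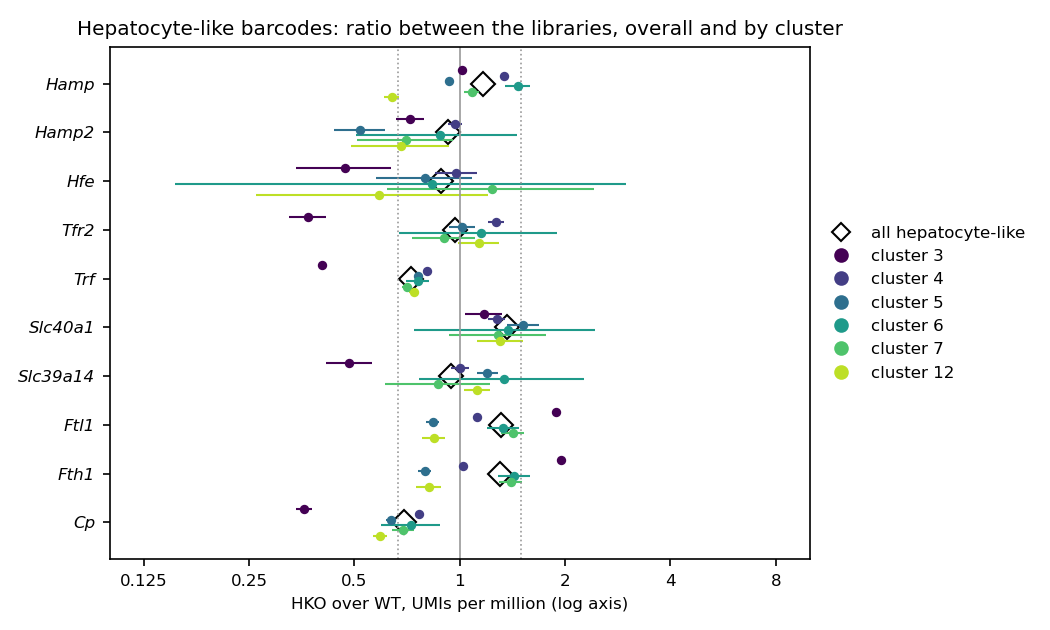
Ratio of CPM, HKO over WT (log axis), for each member in all hepatocyte-like barcodes (open diamonds) and within 6 clusters (points, with exact 95% conditional intervals); the solid line is 1 and the dotted lines are 1.5 in either direction. Trf and Cp lie below 1 and Slc40a1 above 1 in 6 of 6 clusters, while Ftl1 and Fth1 spread across 1.

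The position of hepatocytes along the lobule was read from a score of 7 periportal over 7 pericentral landmark genes that contain no member. Barcodes were ranked by it within each library and split into 3 bins of equal size. Of the check genes, which the score did not use, 6 of 6 periportal and 7 of 7 pericentral genes were placed correctly in both libraries. Median depth differed between bins, at 21266, 19378 and 20317 UMIs from pericentral to periportal in WT and at 4082, 3217 and 7049 in HKO.

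Hamp had the steepest zonal difference of the members in WT. It was at 2625 CPM in the pericentral bin, 4128 in the middle and 4108 in the periportal bin, a periportal over pericentral ratio of 1.56 (interval 1.55 to 1.58). In HKO it was at 2757, 4535 and 5117, a ratio of 1.86 (1.83 to 1.88). In WT the middle and periportal bins were nearly level, whereas in HKO the level was highest in the periportal bin. With 10 bins, Hamp was lowest in the most pericentral bin of both libraries, at 1393 in WT and 1823 in HKO. The HKO over WT ratio of Hamp was 1.05 (1.03 to 1.07) in the pericentral bin of 3 and 1.25 (1.23 to 1.26) in the periportal bin.

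Hamp2 took the same direction, from 132 to 188 in WT, a ratio of 1.42, and from 94 to 190 in HKO, a ratio of 2.03 (1.86 to 2.20). Across the 10 bins of both libraries, 20 points that share libraries and depth, the 5 genes closest to Hamp were Hsd17b13 (r = 0.968), Cyp2f2 (0.965), Hal (0.964), Sds (0.960) and Ftcd (0.960), of 2634 compared. Hsd17b13 and Cyp2f2 were among the landmarks of the score, and all of these correlations are descriptions.

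A ratio of 1.5 between zones was reached by 1 member in WT, Hamp, and by 2 in HKO, Hamp and Hamp2. Over all genes tested the shares were 7.56% and 8.29%. The counts became 0 in WT and 1 in HKO with barcodes weighted equally, and 4 in WT with the score on all UMIs. In HKO, Ftl1 was past 1.5-fold at the lowest of its values under 7 alternative settings, 0.655.

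The ferritin chains were lowest in the periportal bin of both libraries. Fth1 was at 3987, 3363 and 2932 from pericentral to periportal in WT, a ratio of 0.735, and at 5145, 4487 and 3909 in HKO, a ratio of 0.760. Ftl1 was at 2814, 2834 and 2153 in WT, a ratio of 0.765, and at 3818, 3799 and 2852 in HKO, a ratio of 0.747, so its pericentral and middle bins were nearly level. Malat1 moved with the zones as well, at 4360, 5691 and 8175 in WT and at 4447, 5588 and 6135 in HKO. With bins made within each hepatocyte cluster, an alternative chosen after seeing the data, Ftl1 gave 0.941 and 0.857 and Fth1 0.866 and 0.818.

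Slc40a1, Slc39a14 and Cp were higher in the periportal bin of both libraries, with intervals above 1. Slc40a1 had ratios of 1.19 in WT and 1.28 in HKO, Slc39a14 gave 1.24 and 1.32, and Cp 1.21 and 1.27. With bins made within clusters Slc39a14 in WT was at 0.965. Trf was at 1.03 and 1.15, and its direction in WT depended on how the score was built. The intervals of Tfr2 held 1 in both libraries (0.961 and 0.971), and that of Hfe did so in HKO but not in WT (0.821, interval 0.707 to 0.953).

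**Figure D3:**
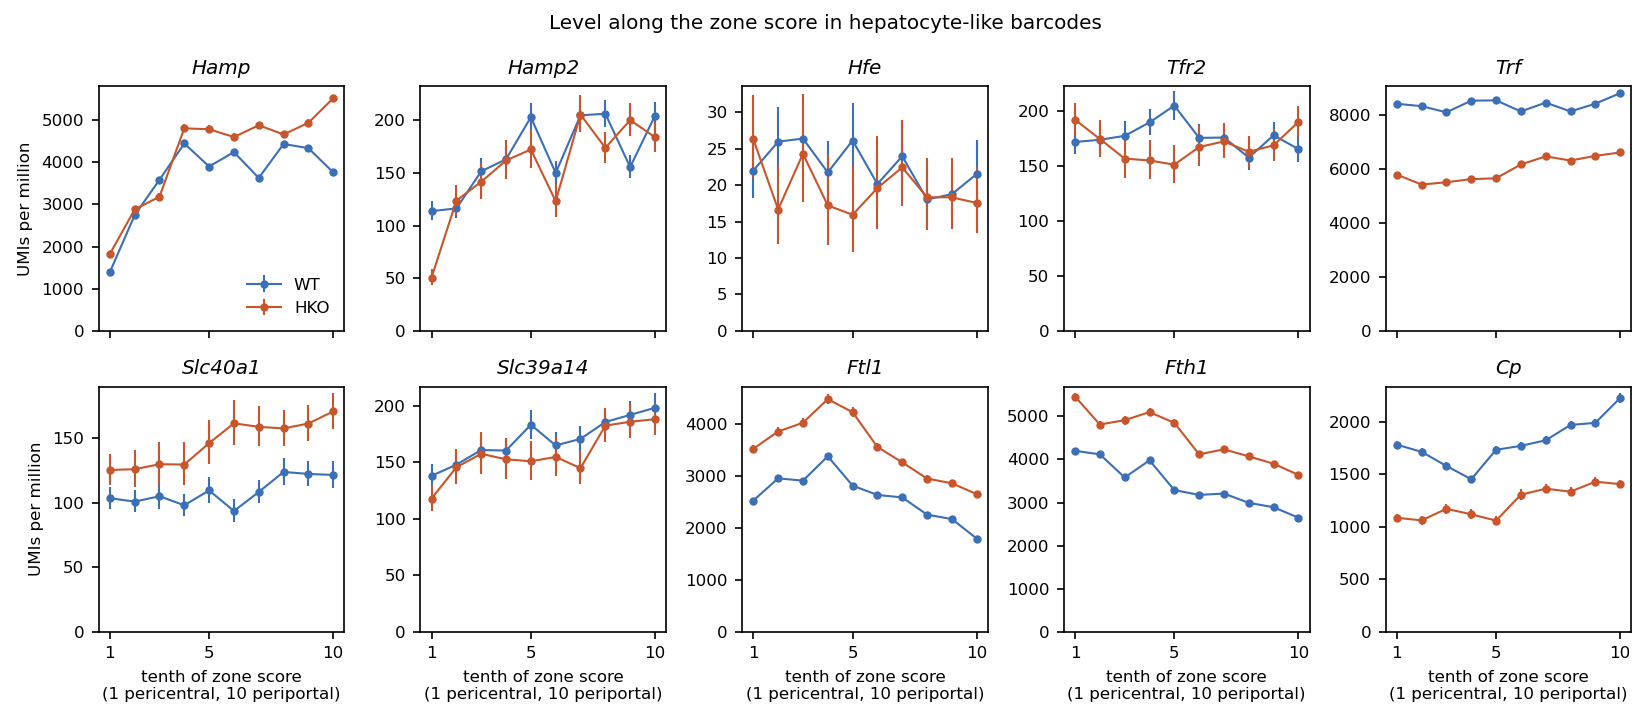
CPM of each member in 10 equal bins of hepatocyte-like barcodes ranked by zone score within the library (1 pericentral, 10 periportal), with WT in blue, HKO in orange and exact 95% Poisson intervals as bars. Hamp climbs over the first 4 bins in both libraries, Ftl1 and Fth1 are lowest in the most periportal bin, and Trf and Cp of HKO lie below WT in every bin.

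The abundant members varied from barcode to barcode more than sampling alone gives. After each hepatocyte-like barcode was thinned to 1500 UMIs, Hamp had a median of 4 UMIs in WT and 5 in HKO, with a variance of 4.12 and 6.00 times the mean. Among other hepatocyte genes, Apoa1 had 3.29 and 3.54, Ttr 5.32 and 6.40, Cyp2e1 5.56 and 7.41, and Alb 13.6 and 16.8. This measure also depends on the mean. Hamp exceeded Apoa1 although its mean was lower in both libraries (4.93 against 8.87 UMIs in WT). Cyp2e1 exceeded Hamp although the Cyp2e1 mean was the lower in both libraries. Ttr and Alb had higher means, 15.5 and 54.2 in WT, so their values do not rank their variation against that of Hamp. By variance over mean, Trf gave 2.65 and 2.96, Ftl1 3.23 and 5.38, and Cp 1.52 and 1.66. Hamp2 gave 1.80 and 2.30 although its mean was under 1 UMI. Hfe, Tfr2 and Slc40a1 lay between 0.966 and 1.12, close to the 1 that sampling alone gives. The highest mean of these 3 genes was 0.252 UMIs, of Tfr2 in WT, so moderate variation would move the measure little.

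Detection of a UMI was no sign of expression for the abundant members. At least 1 Hamp UMI was present in 88.3% of thinned WT hepatocyte-like barcodes (Clopper-Pearson interval 86.8% to 89.7%) but also in 92.4% of thinned WT T and NK barcodes, where its summed level was 0.975 times that of free RNA. In HKO the shares were 89.0% and 70.5%. Without thinning, 100% of WT and 98.0% of HKO hepatocyte-like barcodes held a Hamp UMI. Slc40a1 was detected in 14.1% of WT (12.6% to 15.8%) and 19.6% of HKO (18.3% to 20.9%) thinned hepatocyte-like barcodes, against 9.09% and 6.41% of T and NK barcodes. Unthinned, these shares were 78.4% and 49.5%, an order set by depth.

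In macrophage-like barcodes the genotype ratios rested on 21 WT barcodes. Slc40a1 gave a ratio of 1.15 (interval 1.05 to 1.27) and Hfe of 1.17 (0.810 to 1.71). The classes held unequal free RNA, with Alb at 6657 CPM in WT and 2319 in HKO macrophage-like barcodes, and the part of this in the ratios was not tested. Across single barcodes Slc40a1 had a median of 1524 CPM in WT and 2002 in HKO, with 20 of 21 and 95 of 96 barcodes holding a UMI. Ftl1 and Fth1 were lower in HKO by summed UMIs, with ratios of 0.816 (0.774 to 0.860) and 0.650 (0.621 to 0.680).

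For Fth1 this direction was not shared by the typical barcode. A single WT barcode held 25.6% of the Fth1 UMIs of its class. Without the highest barcode of each library the ratio was 0.717 (0.682 to 0.755), still below 1, whereas the median barcode was at 3284 in WT and 3615 in HKO, the reverse order. Gpnmb and Trem2, markers of lipid-associated macrophages, were also unequal, at 483 and 375 CPM in WT and 168 and 124 in HKO. Their part in the ferritin ratio was not tested.

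Most macrophage-like barcodes carried Clec4f, a Kupffer cell marker: 17 of 21 in WT and 89 of 96 in HKO. Slc40a1 was at 1765 CPM in those of WT and 1954 in those of HKO, and at 803 and 1178 in the 4 and 7 barcodes without a Clec4f UMI. Fth1 showed no common order, at 8891 with and 2557 without Clec4f in WT, and at 4770 and 9200 in HKO.

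Beyond the members, 70 further iron genes were listed, of which 56 passed the filter in hepatocyte-like barcodes. Past 1.5-fold lay 1 that was higher and 3 that were lower in HKO, a share of 56 near the 6.69% of all genes, and the median log2 ratio was -0.04. The 4 genes are given as values. Lcn2, the siderophore-binding lipocalin, was at 97.6 in WT against 194 in HKO, giving a ratio of 1.99 (1.91 to 2.07). Hp, the hemoglobin scavenger haptoglobin, was at 3165 and 1878 (ratio 0.593), and Tfrc at 33.4 and 19.2, a ratio of 0.575 (0.519 to 0.636). Uros, of heme synthesis, gave 0.607 on 667 and 215 UMIs.

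The hepcidin-control list held 15 measured genes, of which 3 lay above 1 and 12 below, none past 1.5-fold, and the median log2 ratio was -0.10. Over all genes 3275 lay above 1 and 3807 below. Id1 and Smad7, transcriptional targets of bone morphogenetic protein signalling, gave 0.997 and 0.791, and Tmprss6, the protease that restrains hepcidin, gave 0.877. The lowest of the list was Hjv at 0.719. The 3 above 1 were Smad1 at 1.32, Smad4 at 1.29 and Stat3 at 1.04. The other lists, of uptake and mobilisation (10 measured), iron regulatory proteins (3), heme and hemoglobin clearance (7), heme synthesis (8) and iron-sulfur cluster assembly (12), had median log2 ratios of -0.13, 0.05, -0.28, -0.06 and 0.04.

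Bmp2 and Bmp6, ligands that drive Hamp, were well above free RNA in endothelial-like barcodes. Bmp2 was at 960 CPM in WT (467 UMIs) and 1226 in HKO (630 UMIs), and Bmp6 at 391 and 549, or 490 and 979 times free RNA for Bmp2 and 478 and 835 times for Bmp6. Bmp6 was also present in cholangiocyte-like barcodes, at 337 CPM in WT (46 UMIs, from 3 of 7 barcodes) and 109 in HKO (30 UMIs). Bmp2 was at 48.5 (9 UMIs) and 81.7 times free RNA there in WT and HKO, and at 33.2 and 36.6 times in stellate-like barcodes. In endothelial-like barcodes the HKO over WT ratios were 1.28 (1.13 to 1.44) for Bmp2 and 1.40 (1.16 to 1.70) for Bmp6. Stab2 and Pecam1, markers of the class itself, gave 1.71 and 1.37 in the same barcodes, where Alb from free RNA was at 12517 CPM in WT and 6489 in HKO. The part of either in the ligand ratios was not tested.

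Of the further iron genes with at least 10 UMIs in macrophage-like barcodes, 30 of 40 in WT and 49 of 54 in HKO stood at least 2-fold above free RNA, no larger a share than the 90.1% and 95.5% of all genes. Hp and Hpx, of the list of heme and hemoglobin clearance, were at 0.776 and 1.02 times free RNA in WT and at 0.924 and 0.970 times in HKO. Hmox1, which opens the heme ring, was at 924 in WT and 786 in HKO, but 1 WT barcode held 32.3% of its UMIs, and without the highest barcode of each library the ratio was 1.07 (0.925 to 1.25). Cd163, the receptor for hemoglobin bound to haptoglobin, was at 135 and 91.3. Slc48a1, a heme transporter, gave a ratio of 1.06 (0.693 to 1.65). Ncoa4, the receptor that delivers ferritin to lysosomes, was at 309 and 170, a ratio of 0.550 (0.432 to 0.701). Tfrc was at 87.1 and 17.9 on 33 and 18 UMIs, and 1 WT barcode held 42.4% of the WT UMIs. Il6ra and Stat3 lay the other way, with ratios of 1.77 (1.21 to 2.66) and 1.38 (1.01 to 1.93).

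**Figure D4:**
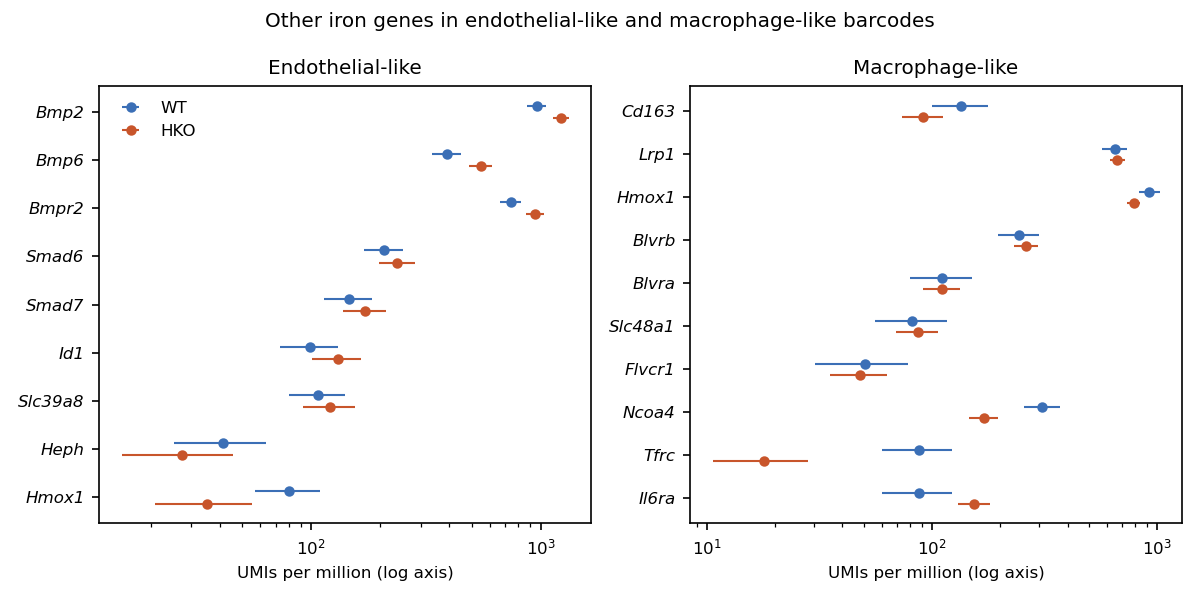
CPM (log axis) of other listed iron genes in endothelial-like and macrophage-like barcodes, with WT in blue, HKO in orange and exact 95% Poisson intervals as bars. Endothelial-like Bmp2 (960 and 1226) and Bmp6 (391 and 549) are higher in HKO, where free RNA in the class was lower (Alb, not plotted, 12517 and 6489). In macrophage-like barcodes Ncoa4 (309 and 170) and Tfrc (87.1 and 17.9) are lower in HKO, and Il6ra (87.1 and 154) is higher.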

How the data were processed

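Libraries were prepared from dissociated livers with a droplet 3′ kit and sequenced by the authors. The matrix headers name Cell Ranger 7.1.0, and the submitters' processing notes name mm10, R 3.0 and Seurat 3. The deposited values are raw UMI counts per gene and barcode, with no normalization. Barcodes with at least 500 UMIs, 300 genes and at most 50% mitochondrial UMIs were kept. Scrublet marked 0 barcodes in either library, so the barcodes with the highest scores were left out as possible doublets (23.7% in WT and 14.6% in HKO).

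Barcodes of both libraries were clustered together with scanpy 1.11.5 and leidenalg 0.10.2 at resolution 1.0, on 2000 variable genes without the members and without the other iron genes, with no integration. A class needed 3 markers detected in 10% of barcodes and 2-fold above the rest. The commonest depth was 2570 UMIs in WT and 851 in HKO, and hepatocyte-like barcodes needed at least 5140 and 1702. Droplets with markers of several classes were set apart as mixed. Barcode sequences shared by both libraries were not analysed here.

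UMIs were summed per class and library and given per 1000000 UMIs (CPM). Counts are from the 3′ end, 1 per molecule, and are not scaled by length. Ratios have exact conditional intervals, levels exact Poisson intervals and shares Clopper-Pearson intervals, at 95%. Ratios were run on simulated data with known folds first. The free RNA expected in a class was its Alb count times the gene's ratio to Alb in barcodes of free RNA depth of that library. Zone scores were the log2 of periportal over pericentral landmark UMIs with a pseudocount of 1, on barcodes thinned to 1500 UMIs. Genes named beyond the members were those of the other iron list past 1.5-fold in hepatocyte-like barcodes, those at least 2-fold above free RNA with at least 10 UMIs in macrophage-like or endothelial-like barcodes, the 5 genes most like Hamp, and Hbb-bs. Tmprss6, Hjv, the cell type markers and the reference genes Alb, Apoa1, Ttr, Cyp2e1, Ftl1-ps1, Hpx and Malat1 were named after their values were seen. The members and lists were chosen with earlier results of these data known. Gene positions and UTRs were taken from GENCODE M21 (GRCm38, the assembly of mm10), the microRNA sequence from RefSeq. Promoter sequences are not reported here.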

Additional observations from a re-analysis of the deposited data

Results flagged for a closer look

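By summed UMIs, the ferritin chains lay on opposite sides of 1 in hepatocyte-like and macrophage-like barcodes. Ftl1 gave an HKO over WT ratio of 1.31 in hepatocyte-like and 0.816 in macrophage-like barcodes. Fth1 gave 1.30 and 0.650. The median macrophage-like barcode ran the other way for Fth1, at 3284 CPM in WT and 3615 in HKO, and in hepatocyte clusters 5 and 12 both chains were below 1. With 1 library per genotype, neither difference between the classes was tested, and the macrophage-like values rest on 21 WT barcodes.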

How the results depend on the processing

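No paired analysis was possible because each genotype had 1 library. In hepatocyte-like barcodes, 8 of the 10 members lay on the same side of 1 under 11 alternatives. Tfr2, whose interval held 1, ranged from 0.939 to 1.05. Trf stayed between 0.693 and 0.741, Cp between 0.594 and 0.777, Slc40a1 between 1.26 and 1.40 and Fth1 between 1.25 and 1.43. Slc39a14 changed sides, to 1.08 with no depth minimum and 1.07 with hepatocyte clusters weighted equally, a setting chosen after seeing the data. The count of members past 1.5-fold, 0, became 2 with barcodes weighted equally (Ftl1 at 1.60 and Cp at 0.594) and 1 with clusters weighted equally, and the count of other iron genes went from 4 to 7 with clusters weighted equally. The share of all genes past 1.5-fold was 10.3% with barcodes weighted equally and 11.3% with a mean of at least 1 CPM. Between zones, members past 1.5-fold in WT numbered 2 with 5 bins of the score, 4 with the score on all UMIs and 0 with barcodes weighted equally. They numbered 2 in WT with bins made within clusters, also chosen after seeing the data. In HKO the count was 1 with barcodes weighted equally, and Ftl1 passed at its lowest of 7 alternatives, 0.655. In WT, Trf changed sides to 0.998 with the score on all UMIs and 0.978 with the check genes, and Slc39a14 to 0.965 with bins made within clusters. Of the levels over free RNA, Hamp in WT macrophage-like barcodes became 1.00 with 8 secreted genes as the scale, and with the profile of hepatocyte-like barcodes Cp became 0.848 in WT and Fth1 0.863 in HKO endothelial-like barcodes. The median barcode, chosen after seeing the data, gave 1.10 for Fth1 in macrophage-like barcodes. The depth of HKO barcodes and the few macrophage-like and cholangiocyte-like barcodes of WT limit the precision. The cause of these changes was not tested.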
